A study of Mus musculus with 6 samples.

Results

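Pluripotency regulators and markers are the genes whose RNA marks embryonic stem cells, and the 10 examined here are Pou5f1, Nanog, Sox2, Klf4, Zfp42, Utf1, Dppa4, Dppa5a, Tdgf1 and Fgf4. They were taken by symbol from the 24393 gene rows of each count list, and all 10 were found and passed the filter on low counts. The question was how much stem-cell RNA remained after differentiation towards definitive endoderm, and whether it differed between HOXA13 and CONTROL cells.

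The cells were KH2 mouse embryonic stem cells (strain C57/BL/6 in the labels), a line built for doxycycline-inducible transgenes, and the HOXA13 genotype carries the human HOXA13 gene with a FLAG tag. There were 3 CONTROL and 3 HOXA13 libraries, called biological replicates by the study, and which targeted clone gave which library is not given in the sources used here, so p-values measure the spread between these samples. Both groups share 1 protocol. Stem cells kept with LIF on irradiated 3T3-Swiss albino fibroblasts were moved to a differentiation culture of 6 days. They grew over M15 feeder cells, which are of mesodermal origin, in medium without LIF but with Activin-A, basic FGF, CHIR and Noggin. Doxycycline at 1.25 µg/ml was added on day 4, a sort on day 6 kept the CXCR4+/E-cadherin+ fraction, and these cells stayed in culture for 1 more day with doxycycline before RNA isolation. The protocol text does not say whether CONTROL cells also received doxycycline.

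Mouse embryonic stem cells are held in their state by a small network of transcription factors. Pou5f1 (Oct4) and Sox2 bind DNA together and, with Nanog, activate each other and many other stem-cell genes. Klf4, Zfp42 (Rex1) and their partners mark the naive state of the inner cell mass, which cells leave when Fgf4 signals through ERK. On the way to endoderm, Nodal or Activin signalling, for which Tdgf1 (Cripto) is a co-receptor of Nodal, turns on a new programme and the stem-cell network is shut down.

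Total counts ranged from 12279884 to 17331638 per library. A count of 0 still allows a level of up to 3 counts, used here as a floor. It corresponded to between 0.176 and 0.240 CPM, the counts scaled to a library size adjusted by TMM. This floor covers counting error only. The row under the human identifier ENSG00000106031, which the files do not pair with a symbol, had 0 counts in each CONTROL library and between 2497 and 7666 counts in the HOXA13 libraries. CONTROL replicate 2 stood apart from the other CONTROL libraries, with a Spearman's rho of 0.908 and 0.931 to CONTROL replicates 1 and 3 across 13600 tested genes, where CONTROL replicates 1 and 3 had 0.977 between them. Results are therefore given with and without CONTROL replicate 2. For genes that are high in this library, leaving it out raises the fold change in advance, and CONTROL then holds only replicates 1 and 3. Of 12 markers of definitive endoderm 10 were tested, and 0 passed over all libraries. Sox17 had between 0.975 and 4.84 CPM, Foxa2 between 1.76 and 5.04 CPM and Cxcr4, a sorting marker, between 2.25 and 11.3 CPM, while Cer1 had 0 counts in the 6 libraries. The most abundant were Eomes, with 49.0 to 110.8 CPM in CONTROL and 24.4 to 41.9 CPM in HOXA13, Gata4 with 13.1 to 31.9 CPM, Gata6 with 5.69 to 35.8 CPM and Hhex with 4.00 to 13.99 CPM over the 6 libraries. Eomes (log2 fold change -1.61) and Gata6 (-1.52) were called lower without CONTROL replicate 2, where 6.32% of all tested genes were.

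The upstream sequence of 3 of the genes holds ATGCAAA, a DNA word that POU factors such as Pou5f1 can bind. Binding at these matches was not tested. RefSeq promoter windows (table build GRCm38.p6, each matched here to mm9) were at hand for 8 of the 10 genes, not for Dppa4 and Dppa5a. The windows were searched on both strands for ATGCAAA, the main part of the octamer bound by POU factors, for CATTGT, a Sox-type core, and for their composite, CATTGT then any 1 base then ATGCAAA, so a composite match also counts for both shorter words. The 250 bases before the start site are printed for the genes with an ATGCAAA match, on the gene's own strand, with capitals marking ATGCAAA on either strand and, in Nanog, the whole composite.
Nanog (mm9, chr6:122657257-122657506, plus strand): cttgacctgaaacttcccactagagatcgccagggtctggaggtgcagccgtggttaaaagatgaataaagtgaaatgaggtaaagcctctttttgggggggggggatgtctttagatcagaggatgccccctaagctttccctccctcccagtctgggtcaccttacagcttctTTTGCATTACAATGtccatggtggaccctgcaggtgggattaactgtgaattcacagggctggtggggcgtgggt
Sox2 (mm9, chr3:34548667-34548916, plus strand): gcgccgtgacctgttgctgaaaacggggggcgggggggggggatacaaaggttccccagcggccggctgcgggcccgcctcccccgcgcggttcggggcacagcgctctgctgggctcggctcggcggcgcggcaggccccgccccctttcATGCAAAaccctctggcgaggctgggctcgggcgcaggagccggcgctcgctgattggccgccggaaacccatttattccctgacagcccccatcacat
Zfp42 (mm9, chr8:44392364-44392613, minus strand): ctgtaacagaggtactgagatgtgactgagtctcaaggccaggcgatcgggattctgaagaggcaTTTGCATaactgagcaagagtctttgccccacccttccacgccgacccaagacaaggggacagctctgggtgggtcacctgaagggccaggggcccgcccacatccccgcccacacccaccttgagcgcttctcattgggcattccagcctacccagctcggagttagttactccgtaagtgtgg

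The composite of Nanog lies on the minus strand, at positions -75 to -62 from its first start site. Across 32851 promoter windows of 300 bases in the table, 2 held the composite (0.00609%), and these were the 2 overlapping windows of Nanog. ATGCAAA occurred in 4.63% and CATTGT in 12.6% of the windows. In Sox2 the ATGCAAA match lay at positions -99 to -93 from the start site, and in Zfp42 at -185 to -179. No ATGCAAA was present in the windows of Pou5f1, Klf4, Utf1, Tdgf1 and Fgf4, which says only that these letters are not in those windows.

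The 10 genes varied widely between the CONTROL libraries. Their counts together made up 0.0130%, 0.129% and 0.0211% of the total across the CONTROL libraries (replicates 1, 2, 3), against 0.0693%, 0.0459% and 0.0441% across the HOXA13 libraries. By this sum CONTROL replicate 2 was the highest, CONTROL replicates 1 and 3 were the lowest, and the 3 HOXA13 libraries lay between them. Klf4, which is also used in epithelia, gave 1311 of the 1777 counts in CONTROL replicate 1. It gave 3157 of 15869 in CONTROL replicate 2 and 4758 of 7949 in HOXA13 replicate 2. Nanog, Tdgf1 and Fgf4 did not keep this order of libraries. CONTROL replicate 2 was the highest of the 6 libraries for 8 of the 10 genes, where it was the highest for 19.9% of all tested genes. CONTROL replicate 1 was the lowest for 9 of the 10 genes, against 23.9% of all tested genes. In these bulk samples, fewer cells of a type and less RNA per cell cannot be told apart.

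**Figure D1:**
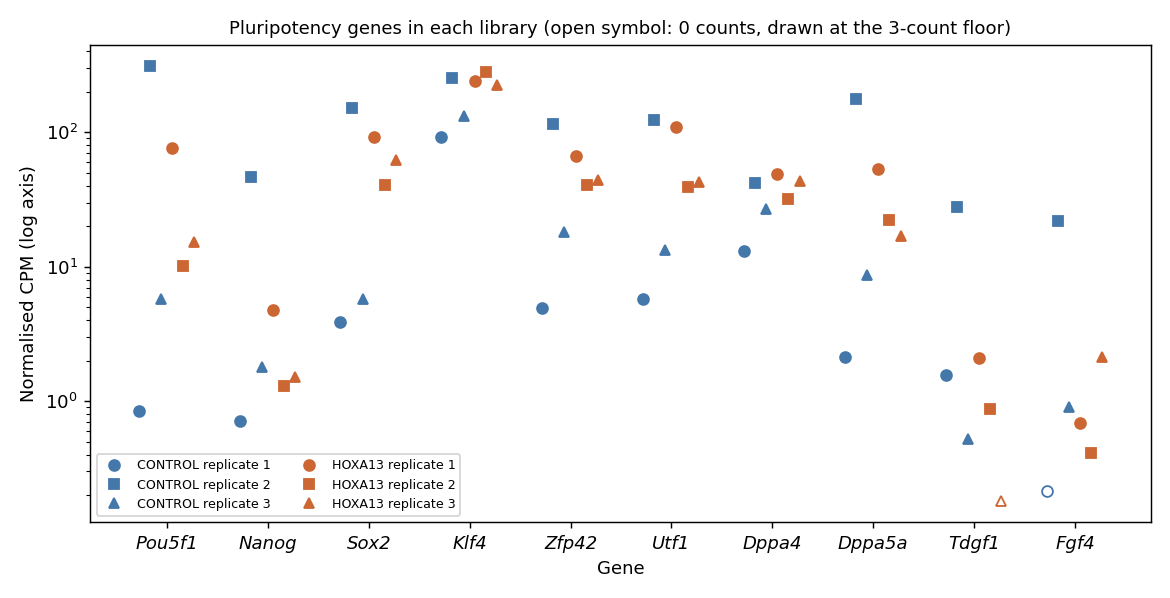
Normalised CPM (log axis) of the 10 pluripotency genes in each of the 6 libraries, with blue symbols for CONTROL, orange symbols for HOXA13 and the symbol shape for the replicate number; open symbols are libraries with 0 counts, drawn at the floor of 3 counts. CONTROL replicate 2 is the highest library for 8 of the 10 genes, and the HOXA13 symbols lie above CONTROL replicates 1 and 3 for 7 of them.

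Between the groups, none of the 10 genes passed the threshold. By the quasi-likelihood test of edgeR, adjusted by Benjamini-Hochberg over 13600 tested genes, 0 of 10 had an adjusted p-value under 0.05 and 0 had an unadjusted p under 0.05, where 0.309% of all tested genes were called, 0.265% as higher in HOXA13 and 0.0441% as lower. The groups overlapped for each of the 10, while among all tested genes the HOXA13 libraries lay entirely above CONTROL for 11.5% and entirely below for 8.52%. The log2 fold changes of HOXA13 over CONTROL were above 0 for 5 genes and below 0 for 5, with a median of -0.45 beside -0.013 over all tested genes. DESeq2 called 0 of the 6 genes to which it gave a p-value (0 at an unadjusted p under 0.05), where it called 4.09% of all genes, 2.52% as higher and 1.57% as lower. It gave no p to Pou5f1, Nanog, Dppa5a and Utf1.

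The result changed when CONTROL replicate 2 was left out, which leaves only replicates 1 and 3 in CONTROL. That library was the highest of the 6 for 8 of the 10 genes, so its removal raises their fold changes in advance. The calls of this fit are therefore a description and no independent support. With the other 5 libraries, 9 of the 10 log2 fold changes were above 0, the median was 1.68 (-0.003 over all tested genes), and 5 genes passed the threshold as higher in HOXA13, namely Sox2, Klf4, Zfp42, Utf1 and Dppa5a. In the same fit 14.2% of all tested genes were called, 7.92% as higher and 6.32% as lower. For 7 of the 10 genes the 3 HOXA13 libraries lay above both CONTROL replicates 1 and 3, which held for 25.3% of all tested genes. The exceptions were Nanog, Tdgf1 and Fgf4. With limma voom and sample quality weights, which keeps the 6 libraries but weights them by their fit, 4 genes were called higher (Sox2, Klf4, Zfp42 and Utf1), where 15.4% of all tested genes were called, 9.11% as higher and 6.34% as lower. Settings that kept the 6 libraries in edgeR called 0 of the 10 genes, with 0.779% of all genes called by the edgeR 4 method, 0.921% without a filter and 0.0797% with a mean of at least 50 counts. Leaving out any library other than CONTROL replicate 2 also gave 0 of 10, with 0.00709% of all genes called without CONTROL replicate 1, 0.0495% without HOXA13 replicate 1 and 0 without the others.

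**Figure D2:**
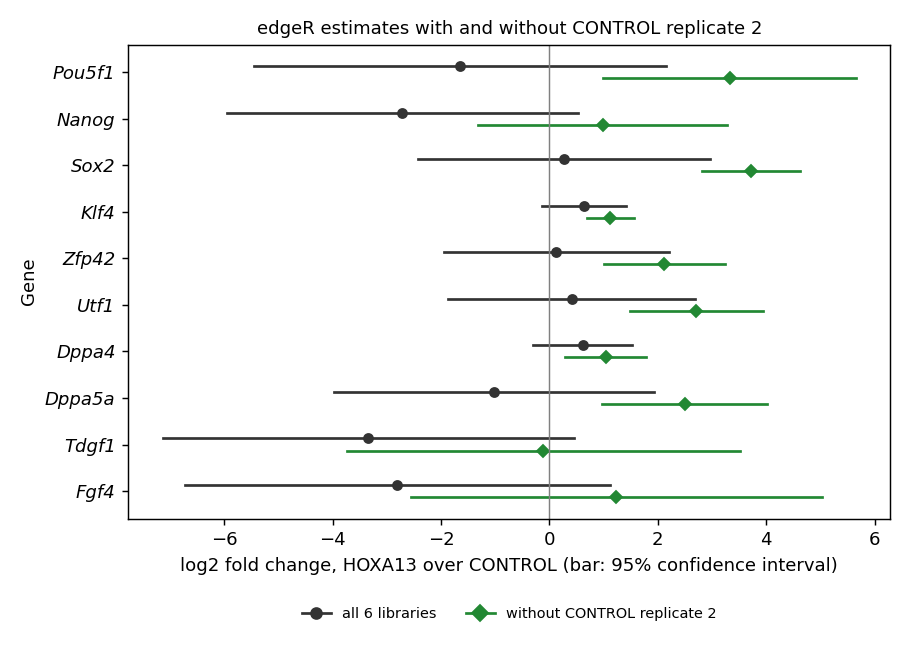
edgeR log2 fold changes of HOXA13 over CONTROL for the 10 pluripotency genes, as points with 95% confidence intervals as bars, from all 6 libraries (black circles) and without CONTROL replicate 2 (green diamonds). All black intervals cover 0, and the green estimates are above 0 for all genes except Tdgf1.

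The 3 core factors shared the high level in CONTROL replicate 2 and differed in the other libraries. Pou5f1 (mm9, chromosome 17, 35642982 to 35647721, plus strand) is the POU-domain factor among them. Its level was 0.851, 309.7 and 5.78 CPM (CONTROL replicates 1, 2, 3) against 75.9, 10.1 and 15.3 CPM (HOXA13 replicates 1, 2, 3). HOXA13 replicate 1 was thus the second highest library, and the level of CONTROL replicate 2 was 364-fold that of CONTROL replicate 1 and 9.17-fold the HOXA13 mean. The log2 fold change was -1.65 (95% confidence interval -5.45 to 2.15) with an edgeR adjusted p of 0.734. Without CONTROL replicate 2 it was 3.33 (1.00 to 5.65) and the adjusted p was 0.0629 (0.0629 to 0.919 over the alternatives other than DESeq2), so the direction turned with this library while the threshold was not passed either way.

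Sox2, the HMG-box partner of Pou5f1, which also acts in neural and foregut progenitors, was the gene in which the HOXA13 libraries differed most clearly from CONTROL replicates 1 and 3. Sox2 (chromosome 3, 34548927 to 34551383, plus strand) had 3.90, 151.6 and 5.78 CPM across the CONTROL libraries, against 91.5, 40.6 and 61.7 CPM across the HOXA13 libraries. The lowest HOXA13 library was therefore well above CONTROL replicates 1 and 3, and the highest was below CONTROL replicate 2. Over the 6 libraries the log2 fold change was 0.27 (-2.43 to 2.96), with an adjusted p of 0.951. Without CONTROL replicate 2 it was 3.72 (2.82 to 4.62) with an adjusted p of 0.00121, the smallest of the 10 genes in that fit. Over the 13 alternatives the adjusted p of Sox2 ranged from 0.00121 to 0.990. The direction was not stable to other libraries either, as the estimate was -0.31 without CONTROL replicate 1, -0.29 without CONTROL replicate 3 and -0.085 without HOXA13 replicate 1.

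Nanog (chromosome 6, 122657507 to 122664651, plus strand), the homeobox factor that keeps stem cells from differentiating, was low outside CONTROL replicate 2. Counts were 10, 586 and 24 across the CONTROL libraries and 62, 22 and 25 across the HOXA13 libraries. In HOXA13 the level was 2.52 ± 1.95 CPM (SD, n = 3), and CONTROL replicate 2 stood 18.6-fold above it. Unlike Sox2, Nanog in HOXA13 replicates 2 and 3 was below CONTROL replicate 3. The 95% confidence interval of its log2 fold change ran from -5.94 to 0.52 with all libraries and from -1.32 to 3.28 without CONTROL replicate 2, so both intervals hold changes in either direction.

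The naive-state factors were Klf4 and Zfp42. Klf4, a Krüppel-like zinc finger factor that is also used in epithelia, was the most evenly expressed of the 10 genes. Klf4 (chromosome 4, 55540013 to 55545347, minus strand) had 93.0, 252.4 and 132.3 CPM across the CONTROL libraries, against 241.8, 278.7 and 225.6 CPM across the HOXA13 libraries. The highest library was HOXA13 replicate 2, and CONTROL replicate 2 lay within the range of the HOXA13 libraries. The log2 fold change was 0.64 (-0.13 to 1.42), with p 0.0916 before and 0.449 after adjustment in edgeR, and without CONTROL replicate 2 it was 1.13 (0.69 to 1.57) with an adjusted p of 0.00733. The direction was the same in 13 of 13 alternative fits, among which the adjusted p ranged from 0.00733 to 0.814.

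Zfp42, a zinc finger protein lost early when stem cells leave the naive state, had 4.97, 115.7 and 18 CPM across the CONTROL libraries, against 66.9, 40.4 and 44.4 CPM across the HOXA13 libraries. Zfp42 (chromosome 8, 44380422 to 44392363, minus strand) thus varied 23.3-fold between CONTROL replicates and 1.66-fold between HOXA13 replicates. Its log2 fold change was 0.13 (-1.96 to 2.22; adjusted p 0.972), and 2.12 (1.00 to 3.24; adjusted p 0.0231) without CONTROL replicate 2. The estimate fell below 0 without CONTROL replicate 1 (-0.43), without CONTROL replicate 3 (-0.27) and without HOXA13 replicate 1 (-0.14).

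A further 3 genes act on chromatin or RNA. Utf1, a chromatin-bound protein of undifferentiated cells, had 5.75, 124.3 and 13.4 CPM across the CONTROL libraries, against 108.7, 39.0 and 42.6 CPM across the HOXA13 libraries. HOXA13 replicate 1 came close to CONTROL replicate 2, at 2.66-fold the mean of the other HOXA13 libraries. Utf1 (chromosome 7, 147129688 to 147131011, plus strand) had a log2 fold change of 0.41 (-1.87 to 2.69; adjusted p 0.903), which was 2.71 (1.49 to 3.93; adjusted p 0.0125) without CONTROL replicate 2. It was -0.15 without CONTROL replicate 1, -0.056 without CONTROL replicate 3 and -0.24 without HOXA13 replicate 1. The adjusted p ranged from 0.0231 to 0.990 for Zfp42 over the 13 alternatives, and from 0.0125 to 0.996 for Utf1 over those other than DESeq2.

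Dppa5a (chromosome 9, 78214859 to 78215984, minus strand), an RNA-binding KH-domain protein of pluripotent cells, had 2.13, 176.9 and 8.63 CPM across the CONTROL libraries, against 53.1, 22.1 and 16.9 CPM across the HOXA13 libraries. This order of libraries was close to that of Pou5f1. Dppa5a had a log2 fold change of -1.03 (-3.98 to 1.93; adjusted p 0.790), and 2.49 (0.98 to 4.01; adjusted p 0.039, within a range of 0.039 to 0.941 over the alternatives other than DESeq2) without CONTROL replicate 2. Dppa4 (chromosome 16, 48283848 to 48294405, plus strand), a DNA-binding SAP-domain protein, resembled Klf4 in varying less between CONTROL replicates than the other genes. By Pearson's r over the 6 libraries its closest gene was Zfp42 (0.939). Dppa4 had 13.2, 41.7 and 26.7 CPM across the CONTROL libraries, against 49.3, 32.2 and 43.2 CPM across the HOXA13 libraries. Its log2 fold change was 0.61 (-0.30 to 1.52; adjusted p 0.555), and 1.04 (0.29 to 1.79; adjusted p 0.0683) without CONTROL replicate 2, above 0 in 13 of 13 alternative fits and past the threshold in 0 of them.

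The signalling genes Tdgf1 and Fgf4 were nearly restricted to CONTROL replicate 2. Tdgf1 (chromosome 9, 110842114 to 110848662, minus strand) gave 22, 346 and 7 counts across the CONTROL libraries and 27, 15 and 0 across the HOXA13 libraries. Fgf4 (chromosome 7, 152047291 to 152051148, plus strand), the ligand that drives exit from the naive state, gave 0, 274 and 12 counts across the CONTROL libraries and 9, 7 and 35 across the HOXA13 libraries. The level of CONTROL replicate 2 was 28.1-fold the HOXA13 mean for Tdgf1 and 20.4-fold for Fgf4, the largest such ratios of the 10 genes. A count of 0 allows up to 0.182 CPM of Tdgf1 in HOXA13 replicate 3 and 0.213 CPM of Fgf4 in CONTROL replicate 1. Tdgf1 had a log2 fold change of -3.34 (-7.13 to 0.45; adjusted p 0.421), and Fgf4 of -2.81 (-6.73 to 1.11; adjusted p 0.527). Without CONTROL replicate 2 the values were -0.11 (-3.74 to 3.52) and 1.23 (-2.56 to 5.02).

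The genes also differed in how far they varied between replicates. The standard deviation of log2 CPM between CONTROL replicates had a median of 2.90 over the 10 genes and of 0.406 over all tested genes, and between HOXA13 replicates 0.84 and 0.273. Klf4 and Dppa4 varied least in CONTROL, with 0.73 and 0.84, and Fgf4 and Pou5f1 most, with 4.64 and 4.31. Across the 6 libraries, Pearson's r of log2 CPM had a median of 0.852 over the 45 pairs of the 10 genes, given as a description in which CONTROL replicate 2 weighs heavily. Pou5f1 and Dppa5a were the closest pair (r = 0.989, and 0.977 without CONTROL replicate 2), Utf1 and Zfp42 followed (r = 0.977, and 0.969), and Tdgf1 was least like the others, with a highest r of 0.702 to Nanog that was 0.145 without CONTROL replicate 2.

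Levels of different genes can be compared only per length, for which CPM was divided by the exon length of the GENCODE M1 models on mm9. In HOXA13, Klf4 stood first with 81.3 ± 8.89 CPM per kb, followed by Utf1 (51.7 ± 32.0), Dppa5a (49.6 ± 31.6), Zfp42 (28.1 ± 7.96), Dppa4 (27.1 ± 5.68), Sox2 (26.3 ± 10.4) and Pou5f1 (15 ± 16.2), all as mean ± SD with n = 3. Nanog (1.13 ± 0.867), Tdgf1 (0.512 ± 0.541) and Fgf4 (0.355 ± 0.303) were lowest. Each pair of neighbours in this order differed by less than the larger of their SDs. In CONTROL replicate 2 the order was another, with Dppa5a (286) and Pou5f1 (137) above Utf1 (101) and Klf4 (82.5). The exons of all Pou5f1 models together span 2256 bases, but its longest coding transcript has 1347. Its level per kb may therefore be understated in both orders, whereas these lengths were nearly equal for the other genes. Some of these levels are uncertain, because 98.2% of the Dppa5a transcript, 93.2% of Dppa4, 78.4% of Zfp42, 71.8% of Nanog, 51.7% of Tdgf1, 28.6% of Pou5f1 and 24.6% of Klf4 had a copy elsewhere in mm9 (at least 75 bases, at least 95% identity), and how reads with several alignments were counted is not given in the sources used here. No such copy was found for Sox2, Utf1 and Fgf4.

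Other pluripotency genes were read from lists that held 37 genes of the naive state, of the network shared by stem-cell states and of the primed epiblast, the later state before gastrulation, of which 35 were tested. Of these 0 passed the threshold in edgeR (3 had an unadjusted p under 0.05), DESeq2 called 1 as lower (4.09% of all genes were called), and limma voom called 8 as higher and 1 as lower (15.4%). CONTROL replicate 2 was the highest library for 26 of the 35, against 19.9% of all tested genes. The 3 HOXA13 libraries lay above CONTROL replicates 1 and 3 for 15 of the 35, against 25.3%. Without CONTROL replicate 2, 9 were called higher and 1 lower, where 7.92% of all tested genes were called higher and 6.32% lower.

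In the naive list, the median log2 fold change was -0.35 (15 genes tested), 1.5 without CONTROL replicate 2. Its most abundant genes were Klf5, Tfcp2l1, Tbx3 and Esrrb, all transcription factors. Tfcp2l1 had 7.52, 191.0 and 24.5 CPM across the CONTROL libraries, against 245.0, 87.0 and 109.3 CPM across the HOXA13 libraries, and Esrrb had 5.60, 173.7 and 13.95 CPM across the CONTROL libraries, against 94.1, 22.2 and 29.6 CPM across the HOXA13 libraries. The 4 called genes without CONTROL replicate 2 were Klf5 (log2 fold change 1.52, adjusted p 0.00766), Zscan10 (2.11, 0.00840), Tfcp2l1 (3.18, 0.00957) and Esrrb (2.29, 0.0494). Tbx3 differed little between libraries, with 44.3 to 89.6 CPM in CONTROL and 45.0 to 63.4 CPM in HOXA13. Dppa3 (Stella), a marker of naive and germ cells, had between 0 and 61 counts per library, with the highest in HOXA13 replicate 1, and Tcl1 had 1 count in all libraries together.

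For the shared network the median was 0.026 on the log2 scale (12 genes tested), 0.87 without CONTROL replicate 2. Dnmt3b, the de novo DNA methyltransferase of the epiblast, had 13.2, 119.1 and 24.8 CPM across the CONTROL libraries, against 150.3, 112.9 and 132.7 CPM across the HOXA13 libraries, so that the HOXA13 libraries stood near CONTROL replicate 2 and above the other CONTROL libraries. Its log2 fold change was 1.33 (adjusted p 0.449), and 2.78 (adjusted p 0.00115) without CONTROL replicate 2. Sall4, Rif1, Jarid2 and L1td1 were also called higher in that fit, with log2 fold changes of 1.16, 1.10, 1.11 and 2.55, and Lin28b, an inhibitor of let-7 maturation, was called lower (-0.87).

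In the primed list the median log2 fold change was -0.77 over 8 genes, and -0.64 without CONTROL replicate 2, with 0 genes called in either fit. Otx2, a homeobox factor of the primed epiblast, had 3.69, 4.96 and 1.35 CPM across the CONTROL libraries, against 0.615, 0.469 and 0.485 CPM across the HOXA13 libraries, with no overlap between the groups (log2 fold change -2.66, unadjusted p 0.0132, adjusted p 0.211). Fgf5 had between 5.25 and 10.6 CPM in CONTROL and between 0.999 and 6.68 CPM in HOXA13. Pou3f1, Zic2, Sox3 and Sall2, the most abundant genes of this list, had log2 fold changes from -1.46 to -0.46 and adjusted p-values from 0.348 to 0.828.

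**Figure D3:**
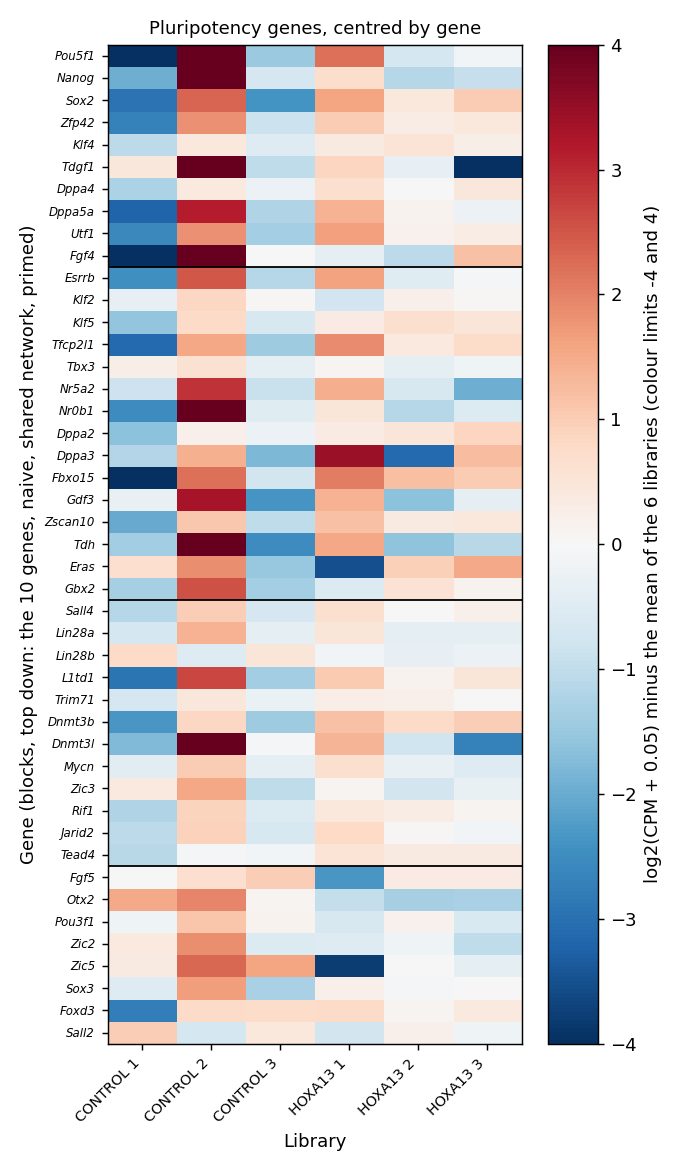
Centred log2 expression (log2 of CPM + 0.05 minus the mean of the 6 libraries, colour limits -4 and 4) of the 10 pluripotency genes and of the tested naive, shared-network and primed genes, with libraries as columns and lists separated by black lines. CONTROL replicate 2 is the highest library for 8 of the 10 genes and for 26 of the 35 others.

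The 2 signalling pathways that run through these genes were examined next. Of 14 genes of LIF and FGF signalling, 0 passed over all 6 libraries (1 had an unadjusted p under 0.05), and the most abundant, Dusp6, Fgfr1, Jak1 and Etv4, had 113.7 to 291.1 CPM in each library. Fgfr2, a receptor of FGF, was the one with the small p, at 9.79 to 26.4 CPM in CONTROL and 45.6 to 63.7 CPM in HOXA13 (log2 fold change 1.78, adjusted p 0.102). Without CONTROL replicate 2, 3 of the 14 were called higher (Fgfr2, Spry2 and Spry4), against 7.92% of all tested genes. Of 12 genes of Nodal and Cripto signalling, 11 were tested and 0 passed (1 had an unadjusted p under 0.05). The transducers Smad2, Smad3 and Smad4 and the receptor Acvr2a were the most abundant, with log2 fold changes from -0.25 to 0.27. Chosen after their values were seen, the feedback inhibitor Lefty1 had 0, 50 and 12 counts in CONTROL and 152, 126 and 167 in HOXA13, with a log2 fold change of 2.58 and an adjusted p of 0.367, and Lefty2 had 0, 623 and 14 counts in CONTROL and 478, 184 and 164 in HOXA13 (0.18, adjusted p 0.979). Both were called without CONTROL replicate 2 (4.41 and 5.16), as was Foxh1, a Smad partner (2.64).

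Markers of other cells moved with the libraries. The 15 markers of mesonephric feeder cells and fibroblasts, of which 13 were tested, summed to 1629, 68.3 and 503 CPM in CONTROL replicates 1, 2 and 3 and to 37.8, 256.7 and 115.4 CPM in HOXA13 replicates 1, 2 and 3. The libraries with the highest sums were therefore CONTROL replicates 1 and 3, which had the lowest levels of 7 of the 10 pluripotency genes, and the lowest sums were in HOXA13 replicate 1 and CONTROL replicate 2. The most abundant of them in the CONTROL libraries was Col1a1, with 1163, 18.6 and 294.8 CPM across the CONTROL libraries, against 1.38, 117.7 and 23.2 CPM across the HOXA13 libraries, followed by Col1a2 (1.69 to 236.5 CPM over the 6 libraries) and Col3a1 (0.845 to 106.5 CPM), while Wt1 was at most 6.64 CPM and Tcf21 and Lum were at 0 counts in 5 of the 6 libraries each. Of the 13 tested, 0 were called over all libraries (1 had an unadjusted p under 0.05), and 2 were called lower without CONTROL replicate 2, Pdgfrb (log2 fold change -2.37) and Twist1 (-1.54), where 6.32% of all tested genes were called lower. The sums of CONTROL replicates 1 and 3 were thus mostly Col1a1. Pdgfrb, Twist1, Prrx1 and Postn were highest in CONTROL replicate 1, as the collagens were. Other markers of the list did not follow the collagens, as Thy1 had 1.56 to 3.30 CPM in CONTROL and 3.84 to 8.03 CPM in HOXA13, and Dcn had 1.52 to 1.99 CPM in CONTROL and 0.849 to 6.62 CPM in HOXA13. Wt1 was highest in CONTROL replicate 2, at 6.64 CPM against 1.49 and 3.15 CPM in CONTROL replicates 1 and 3. The sorting and epithelial markers Cdh1, Epcam and Cxcr4 summed to 214.9, 1689 and 779.1 CPM in CONTROL and to between 1935 and 2166 CPM in HOXA13. Cdh1, which encodes E-cadherin, had a log2 fold change of 1.28 (adjusted p 0.351), and 1.97 (adjusted p 0.0216) without CONTROL replicate 2. The part of feeder and epithelial RNA in the differences of the pluripotency genes was not tested.

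**Figure D4:**
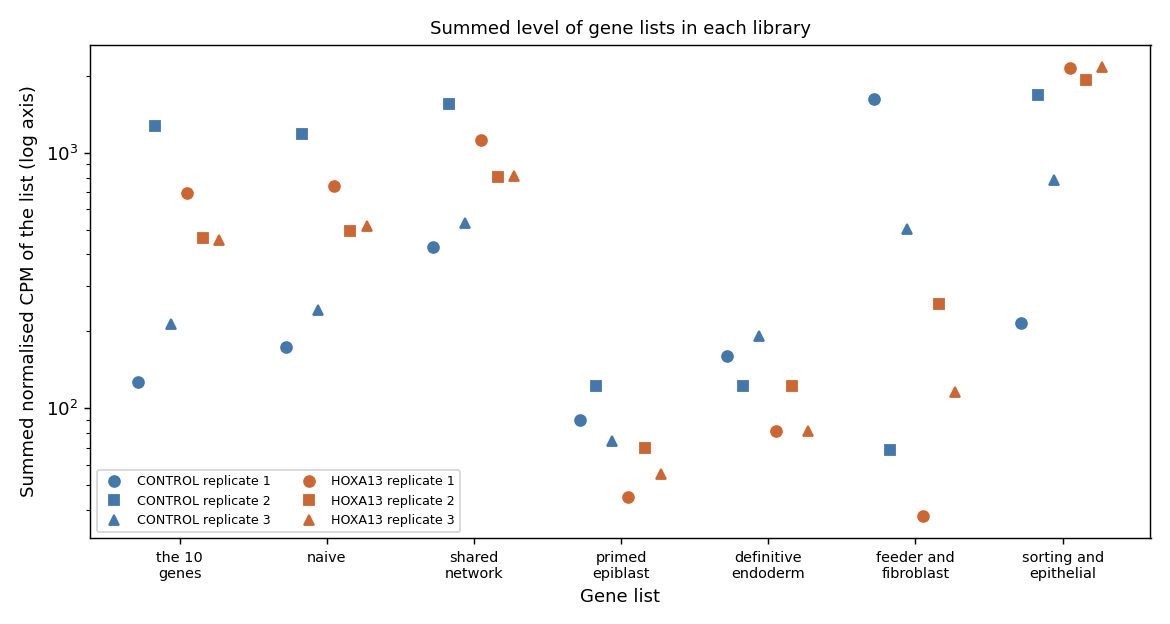
Summed normalised CPM (log axis) of 7 gene lists in each library, with blue symbols for CONTROL, orange symbols for HOXA13 and the symbol shape for the replicate number. The 10 genes and the naive and shared-network lists are highest in CONTROL replicate 2, whereas the feeder and fibroblast list is highest in CONTROL replicates 1 and 3.

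Sox2 also marks neural and foregut progenitors, and the germ line shares Pou5f1 and Nanog, so markers of these cells were read beside it. Of 9 neural markers 6 were tested and 0 passed. The most abundant, Nes, encodes an intermediate filament of progenitor cells and had 346.2, 99.4 and 242.2 CPM across the CONTROL libraries, against 91.1, 129.6 and 128.4 CPM across the HOXA13 libraries (log2 fold change -0.98, unadjusted p 0.0407, adjusted p 0.326). It was called lower without CONTROL replicate 2 (-1.35, adjusted p 0.00524). The other neural markers were low, with Zic1 at 0 to 15.5 CPM, Sox1 at 0 to 3.04 CPM, Pax6 at 0.909 to 3.12 CPM and Pou3f2 at 0 to 3.12 CPM, and Olig2 found only in CONTROL replicate 2 (49 counts). Of 7 anterior foregut markers 4 were tested and 0 passed. Sox21 had 5.89, 11.9 and 8.18 CPM across the CONTROL libraries, against 15.1, 22.1 and 23.3 CPM across the HOXA13 libraries, without overlap (log2 fold change 1.22, adjusted p 0.179), and was called higher without CONTROL replicate 2 (1.51, adjusted p 0.0205), while Pax9, Nkx2-1 and Foxe1 reached at most 2.43, 1.38 and 2.05 CPM. Of 10 visceral endoderm markers 6 were tested and 0 passed. Afp and Ttr had 0 counts in the 6 libraries, Cubn had 5.70 to 9.15 CPM, Ihh 0.567 to 3.28 CPM and Rbp4 0 to 3.40 CPM, and Dab2 had 106.0, 4.72 and 54.3 CPM across the CONTROL libraries, against 7.84, 30.3 and 31.0 CPM across the HOXA13 libraries. Dab2 was called lower without CONTROL replicate 2 (log2 fold change -1.81, adjusted p 0.0454). In that fit the calls were thus 1 of 6 neural genes, 1 of 4 foregut genes and 1 of 6 visceral endoderm genes. Of all tested genes, 7.92% were called higher and 6.32% lower there.

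By the rule fixed for likeness, 10716 genes averaging 5 CPM or more were ranked by Pearson's r over the 6 libraries to the mean centred log2 CPM of the 10 genes. The closest were Sars, Mir17hg, Cdca7, Hira, Ctbp2, E130012A19Rik, Aldoa, Ran, Chchd10 and Hnrnpm, with r from 0.993 to 0.999, and from 0.961 to 1.00 without CONTROL replicates 1 and 2, the libraries farthest from the median. Their ranges were narrower than those of most of the 10 genes, as with Sars at 202.3 to 276.9 CPM and Mir17hg, the host transcript of a microRNA cluster, at 5.46 to 55.8 CPM. The log2 fold changes of these genes lay between -0.26 and 0.047.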

How the data were processed

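Raw read counts per gene symbol were deposited by the authors, 1 list per library. Per the labels and the methods, poly-A RNA was prepared with a strand-specific kit, and 75-base reads were aligned to mm9 with TopHat and counted with HTSeq 0.6.1p1 (the submitters' processing notes give TopHat2 2.0.14). The annotation and strand option are not given in the sources used here, so overlapping and antisense genes are uncertain.

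The tests used edgeR 4.0.16 under R 4.3.3 (filterByExpr by group, minimum count 10 and total 15, which kept 13600 genes; TMM scaling; glmQLFit with its defaults and glmQLFTest on the group alone; Benjamini-Hochberg adjustment; threshold 0.05). Standard errors and 95% confidence intervals came from the F statistic. CPM used TMM-scaled library sizes, and 0.5 counts were added before log2 where correlations and spreads were taken. The code was tested on simulated data. No replicate pair agreed within sampling noise (chi-square per degree of freedom 15.8 to 127). Alternatives were DESeq2 1.42.0, limma 3.58.1 voom with sample quality weights, RLE scaling, other filters, the edgeR 4 quasi-likelihood method, the replicate block and leaving out each library.

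The 10 genes and the lists were chosen with earlier results of these data known. Named genes of a list were those past the threshold or, with none, the up to 4 most abundant, together with Foxa2, Sox17, Cxcr4, Cdh1, Dnmt3b, Esrrb, Dppa3, Fgf5 and Otx2. Genes of a list named for other reasons, such as a call without CONTROL replicate 2, were chosen after their values were seen. Transcripts of GENCODE M1 were matched to the mm9 genome by blastn.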

Additional observations from a re-analysis of the deposited data

How the results depend on the processing

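Against 42 genes called over the whole table, DESeq2 called 722, limma voom 2101, the absence of a filter 163, a mean of at least 50 counts 9, the edgeR 4 method 106, and the fits without 1 library 0 to 2006. Of the 10 pluripotency genes 0 were called, against 4 with limma voom and 0 to 5 without 1 library. Of the other 35 pluripotency genes 0 were called, against 1 with DESeq2, 9 with limma voom and 0 to 10 without 1 library. Among the fits without 1 library, the highest of each of these counts came without CONTROL replicate 2, and the fits without another library called 0 to 7 genes of the whole table. The median log2 fold change of the 10 genes was -0.45 and ranged from -1.03 to 1.68 without 1 library, and was 1.43 with limma voom. Directions turned for 7 genes, with ranges without 1 library of -3.07 to 3.33 for Pou5f1, -3.56 to 0.98 for Nanog, -0.31 to 3.72 for Sox2, -0.43 to 2.12 for Zfp42, -0.24 to 2.71 for Utf1, -1.69 to 2.49 for Dppa5a and -3.80 to 1.23 for Fgf4. With limma voom the values were 1.82 for Pou5f1, 1.58 for Dppa5a and 1.29 for Fgf4. Klf4, Dppa4 and Tdgf1 kept their direction in 13 of 13 alternatives. The cause was not tested.

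With the replicate block, 0 genes of the whole table, 0 of the 10 and 0 of the other 35 were called (1392, 1 and 3 at an unadjusted p under 0.05), and Pou5f1 (1.20), Dppa5a (0.85) and Fgf4 (0.19) turned above 0. The deviations of same-numbered samples correlated at -0.186, -0.247 and 0.079 (mean -0.118, against 0.066 for different numbers), and 0 of 6 samples correlated best with their own number, so the samples share only a number. Depth limits Tdgf1 and Fgf4 most, with 0 to 27 and 0 to 35 counts in the libraries other than CONTROL replicate 2. What size of change these counts could show was not tested.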

Other observations

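Among regulators of primordial germ cells, 5 of 6 genes stood higher in each HOXA13 library than in CONTROL replicates 1 and 3 (25.3% of all tested genes did so), the exception being Nanos3. Of 6 listed genes 6 were tested and 0 passed in edgeR over all 6 libraries (1 had an unadjusted p under 0.05), and 2 passed as higher without CONTROL replicate 2, where 7.92% of all tested genes did. Prdm1 (Blimp1), a repressor needed for primordial germ cells, had 6.10, 23.5 and 7.05 CPM across the CONTROL libraries, against 48.5, 37.0 and 42.3 CPM across the HOXA13 libraries, without overlap (log2 fold change 1.80, unadjusted p 0.00728, adjusted p 0.169). Tfap2c, which acts with Prdm1, had 4.47, 37.4 and 17.2 CPM across the CONTROL libraries, against 46.3, 44.6 and 51.3 CPM across the HOXA13 libraries, also without overlap. The germ-cell RNA helicase Ddx4 followed the pluripotency genes, with 8.51, 66.3 and 23.6 CPM across the CONTROL libraries, against 63.1, 37.8 and 33.1 CPM across the HOXA13 libraries. Kit, a receptor of germ cells, had 4.96 to 10.8 CPM over the 6 libraries.

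Of 6 trophoblast markers, all tested, 0 passed over all 6 libraries and Cdx2 passed as higher without CONTROL replicate 2, where 7.92% of all tested genes did. Hand1, a factor of trophoblast and mesoderm, was the gene with an unadjusted p under 0.05, and was lower in each HOXA13 library (7.30 to 20.0 CPM) than in each CONTROL library (21.7 to 48.0 CPM), with a log2 fold change of -1.21, an unadjusted p of 0.0229 and an adjusted p of 0.267. Its value without CONTROL replicate 2 was -1.28 (adjusted p 0.0935). Cdx2, a factor of trophoblast and hindgut, had 16.2, 98.7 and 26.0 CPM across the CONTROL libraries, against 133.8, 52.1 and 50.2 CPM across the HOXA13 libraries, with a log2 fold change of 0.75 (adjusted p 0.697) over all libraries. Ascl2, a factor of trophoblast and intestinal stem cells, was higher in each HOXA13 library (8.49 to 12.9 CPM) than in each CONTROL library (0.851 to 6.88 CPM), with a log2 fold change of 1.37, an unadjusted p of 0.079 and an adjusted p of 0.425. Gata3 had 22.7 to 61.0 CPM over the 6 libraries. Elf5 had at most 24 counts in a library. Among the definitive endoderm genes, Eomes, which also acts in trophoblast, was lower in each HOXA13 library than in each CONTROL library, at 24.4 to 41.9 CPM against 49.0 to 110.8 CPM (log2 fold change -1.32, unadjusted p 0.00405, adjusted p 0.141).
Elf5 and Nanos3 were named after their values were seen.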
